A study of Mus musculus with 10 samples.

Results

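The genes described are the heat shock proteins, chaperones and chaperonins carried by a spotted mouse cDNA array. They were chosen by symbol: the letters of the heat shock protein, DnaJ, chaperonin, heat shock factor, FK506-binding protein, cyclophilin, BAG and Ahsa families, with Tcp1, Stip1 and Cdc37, on array features that the platform annotation gives 1 gene symbol. The rule found 66 genes on 77 features, of 6795 named genes and 9596 features in all; 56 genes had 1 feature, 9 had 2 and 1 (Hspa4l) had 3. The rule used no measured value, though it was set with earlier results of these data known. All 66 had a value on all 10 arrays, and no filter on low values was applied. Roles were read from the symbols alone, so a role is that of the name and was not checked for each protein. There were 9 HSP70 and HSP110 genes, 5 genes of HSP90 and its co-chaperones, 22 DnaJ genes and 10 chaperonin genes. The rest were 3 genes named as small heat shock proteins, 9 FK506-binding proteins, 3 cyclophilins, 3 BAG genes and 2 other matches. The other matches were Hspg2, which encodes the basement membrane proteoglycan perlecan and is no chaperone, and Hspa12a, a distant relative of HSP70. No feature of a heat shock factor met the rule, and Hspa1b, Hspb1, Hspd1, Hsp90ab1, Ppia, Ppib, Ppif and Stip1 were not analysed here. A further 3 features carried several symbols with a matching one among them and were left out.

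The study compared adherent peritoneal exudate cells (PEC) with the adherent macrophages of tumours (tumour-associated macrophages, TAM), both from C57/6N mice at 8 weeks of age and kept in culture, with or without lipopolysaccharide (LPS), the bacterial cell wall product that activates macrophages through Toll-like receptor 4. LPS was given at 100 ng/mL for 4 hours, and on every array with TAM the cells, PEC included, were taken 3 weeks after tumour implantation; the labels do not name the tumour, nor any separation of macrophages beyond adherence. Each array held RNA of one condition in each channel, which gives 4 direct comparisons. Untreated TAM against untreated PEC had 4 arrays, called TAM-b, TAM-2R, TAM-3 and, on another print, TAM-8. LPS-treated against untreated PEC had 2 (PEC1 and PEC2), LPS-treated against untreated TAM had 2 (TAM-trial and TAM-16), and LPS-treated TAM against LPS-treated PEC had 2 (TAM1 and TAM7). The labels do not say that the arrays came from separate animals or cultures, so p-values measure only how far these arrays scatter, and that scatter may be technical. In such bulk RNA, fewer cells of a type and less RNA per cell cannot be told apart.

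Chaperones bind unfolded or newly made proteins and keep them from aggregating. HSP70 proteins do so in cycles of ATP use that DnaJ proteins start and BAG and HSP110 proteins help to reset; HSP90 and its co-chaperones finish signalling proteins such as kinases and steroid receptors; and the chaperonins enclose a folding protein in a ring, TRiC in the cytosol and HSP60 with HSP10 in mitochondria. FK506-binding proteins and cyclophilins speed the turning of proline bonds. Heat shock factor 1 raises many cytosolic members in stress, and the unfolded protein response raises those of the endoplasmic reticulum (ER), which secreting macrophages draw on.

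Every value below is a log2 ratio, so that 1 is a doubling, written as the first-named condition over the second; the arrays give ratios and no levels, so genes are not ranked by abundance and the labelled cell type could not be checked by the level of its markers. Which dye each channel carried is not given in the sources used here. The direction taken is therefore likely rather than certain: read as channel 2 over channel 1, 51 of 60 inflammatory and interferon genes were above 0 on PEC1 and 52 of 60 on PEC2, with medians of 1.54 and 1.44. TAM-2R and TAM1 carry the conditions in the opposite channels and were turned. By the labels there were 3 print versions: PEC1 was on v1p1, TAM-8, TAM-trial and TAM7 were on v9p2, and the other 6 were on v3p6. A feature's place on the array accounted for 4.39% of the variance on TAM1 and up to 49.1% on TAM-b, and arrays of one comparison correlated across all 8905 genes and unnamed features at only 0.039 to 0.33. Features of the same gene hardly tracked each other: over the 576 genes with 2 features, their values correlated between -0.012 and 0.105 on the 10 arrays, which bears on every gene value below, averaged or from 1 feature. Of 19 macrophage markers measured, 18 had means above 0 for LPS in PEC (median 1.5), beside 48.1% of everything tested. For LPS in TAM 3 had means above 0 (median -0.73), beside 43.2%. The signs of that list were thus those of the chaperone medians given below. The part of that list in them was not tested.

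No chaperone gene passed the threshold (limma, Benjamini-Hochberg adjusted p under 0.05 over 8905 genes and unnamed features) in any comparison. In untreated TAM against PEC, 0 of 66 passed, beside 0.46% of everything tested, and the lowest adjusted p among them was 0.245 (Hspg2). For LPS in PEC 0 of 66 passed beside 0.0112%, with a lowest adjusted p of 0.423 (Fkbp2), and for LPS in TAM 0 of 66 passed beside 0%, with a lowest of 0.827 (Dnajc19). Between the LPS-treated cell types 0 of 66 passed beside 0.0674%, the lowest being 0.467 (Fkbp4). The difference of the LPS responses, TAM minus PEC, also gave 0 of 66 beside 0%, with a lowest adjusted p of 0.719. At an unadjusted p under 0.05 the same fit gave 8 members (12.1%) for TAM against PEC beside 14.3% of all, 6 (9.09%) for LPS in PEC beside 8.14%, 0 for LPS in TAM beside 5.58%, 3 (4.55%) between the treated cell types beside 8.99%, and 5 (7.58%) for the difference of responses beside 6.87%. These unadjusted counts moved widely with the arrays used: without TAM-16 there were 9 for LPS in TAM and 10 for the difference of responses, without TAM-trial 0 for the difference, without TAM-b 3 for TAM against PEC, without PEC1 or without PEC2 3 for LPS in PEC and 1 between the treated cell types, and without TAM-trial or without TAM-16 5 between the treated cell types. The share of everything tested was not computed for these smaller sets of arrays, so their counts cannot be set against a background. In the full set of arrays the shares lay near or below the background, so single genes are given below as measurements with their 95% intervals.

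The median chaperone gene lay above 0 for LPS in PEC and below it for LPS in TAM. In PEC the median of the 66 means was 0.22 against -0.04 over everything tested, and 43 of 66 means (65.2%) were above 0 against 48.1%. On both PEC arrays 30 members (45.5%) were above 0, beside 31.4% of all, and 13 (19.7%) were below 0, beside 32.5%. In TAM the median was -0.27 against -0.13 over everything tested, with 8 members (12.1%) above 0 on both arrays beside 22.4% and 24 (36.4%) below 0 on both beside 33.7%. By array the TAM medians were -0.28 against 0 on TAM-trial and -0.24 against -0.20 on TAM-16, so TAM-16 hardly departed from everything tested. The difference of the responses had a median of -0.57 against -0.11, and 44 of 66 genes (66.7%) were below 0 against 55.3% of all. The untreated cell types differed little in the middle of the group: the median was -0.01 against -0.02, 4 members (6.06%) were higher in TAM on all 4 arrays beside 8.77%, and 5 (7.58%) were lower on all 4 beside 10.8%. Between the treated cell types the median was 0.13 against 0.08, with 18 members (27.3%) above 0 on both arrays beside 32.9% and 17 (25.8%) below 0 on both beside 28.2%. These counts describe the lists and carry no test of their own.

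**Figure D1:**
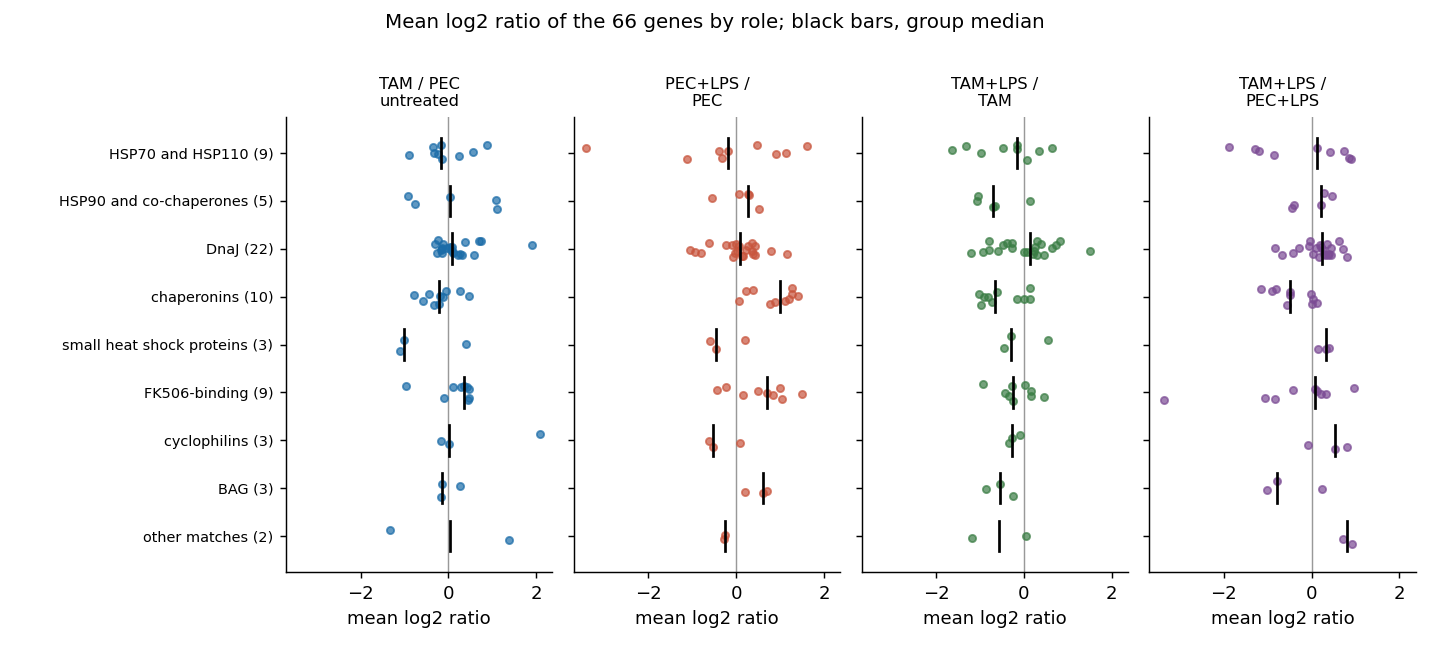
Mean log2 ratio of each of the 66 genes (points) in the 4 direct comparisons (panels), with genes grouped by role, the number of genes in brackets and a black bar at each group's median. For LPS in PEC the 10 chaperonins sit above 0 with a median of 1.01, while the 22 DnaJ genes centre on 0.09.

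Among the HSP70 genes Hspa8, Hspa5 and Hspa9 had means above 0 for LPS in PEC and below 0 in the other comparisons, none past the threshold. Hspa8 encodes HSC70, the constitutive cytosolic HSP70. Its log2 ratios for LPS in PEC were 2.27 on PEC1 and 0.98 on PEC2, a mean of 1.62 ± 0.91 (SD, n = 2; 95% interval -0.25 to 3.50; limma adjusted p = 0.693). For LPS in TAM it was at -3.46 on TAM-trial and 0.21 on TAM-16, so the arrays lay on opposite sides of 0, with a mean of -1.63 ± 2.60 (SD, n = 2; adjusted p = 0.827). In LPS-treated TAM against LPS-treated PEC it read -0.82 and -2.92, below 0 on both arrays, with an interval of -3.75 to 0.01 around the mean of -1.87, which was -1.05 with TAM1 left unturned. In the untreated cell types the values were -1.0, 0.24, 0.36 and -1.01, which straddled 0. The difference of its LPS responses was -3.25 (SE 1.19; adjusted p = 0.719), and -1.42 without TAM-trial, so its size rests on that array.

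Hspa5 encodes BiP, the HSP70 of the ER and a usual readout of the unfolded protein response. It read 1.61 on PEC1 and 0.66 on PEC2, both above 0, with a mean of 1.14 ± 0.68 (SD, n = 2; interval -0.72 to 2.99). In TAM the pair was split again, at -3.21 on TAM-trial and 0.60 on TAM-16, and between the treated cell types it was -0.12 on TAM1 and -2.29 on TAM7. Hspa9 encodes mortalin, the mitochondrial HSP70 that pulls imported proteins into the matrix. It was below 0 on all 4 arrays of untreated TAM against PEC, at -0.46, -0.43, -0.99 and -1.67, with a mean of -0.89 ± 0.58 (SD, n = 4; interval -1.78 to 0.01; adjusted p = 0.352). With LPS it read 1.34 and 0.50 in PEC, and -1.95 and -0.01 in TAM. It was also below 0 on both arrays of the treated cell types, at -0.71 and -1.85, with a mean of -1.28 (interval -2.55 to -0.02; adjusted p = 0.548) that was -0.57 with TAM1 left unturned. For Hspa8, Hspa5 and Hspa9 the v9p2 array of a comparison gave the lowest value each time, except that TAM-b was lower than TAM-8 for Hspa5; print and array cannot be told apart within the pairs of 2.

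Hspa1a, the stress-inducible HSP70, had other signs in part, untested as a difference between genes. In untreated TAM against PEC it was at 1.11 on TAM-b, 1.25 on TAM-2R, 1.51 on TAM-3 and -0.36 on TAM-8, so the 3 v3p6 arrays were high and the v9p2 array was not. The mean was 0.88 ± 0.84 (SD, n = 4; interval 0.08 to 1.67; adjusted p = 0.311), and its 2 features gave 0.66 and 1.09; with TAM-2R left unturned the mean was 0.25. It stayed above 0 between the treated cell types, at 1.19 and 0.50, a mean of 0.84 (interval -0.28 to 1.97); there leaving TAM1 unturned made the mean -0.34, and the features differed, at means of 1.44 and 0.25, with 1.55 and -0.55 on TAM7. LPS gave values near or below 0 in both cell types: -0.35 and -0.03 in PEC (mean -0.19, interval -1.31 to 0.94), -0.74 and -0.19 in TAM (mean -0.46, interval -1.59 to 0.66). Hspa1a and Hspa1b are near-identical in sequence, so a cDNA spot cannot tell their transcripts apart.

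The other HSP70 relatives showed smaller or single-array values. Hsph1, an HSP110 that acts as exchange factor for HSP70, read 1.38, 0.73, -0.66 and 0.82 in untreated TAM against PEC, high on all arrays but TAM-3, with a mean of 0.57 (interval -0.35 to 1.48). In treated TAM against treated PEC it was at 0.87 and 0.60. Hspa4, another HSP110, read 0.55 and 0.42 for LPS in PEC and -0.32 and -1.40 between the treated cell types. Hspa14, which works with the ribosome, was at 0.22 and 1.58 in the latter comparison. Hspa2, known from the testis, had a mean of -3.42 for LPS in PEC, but this was 0.20 on PEC1 against -7.04 on PEC2. Hspa4l similarly rested on 1 of its 3 features, at -6.10 on PEC2, against 0.27 and -0.78 for its other features on that array.

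**Figure D2:**
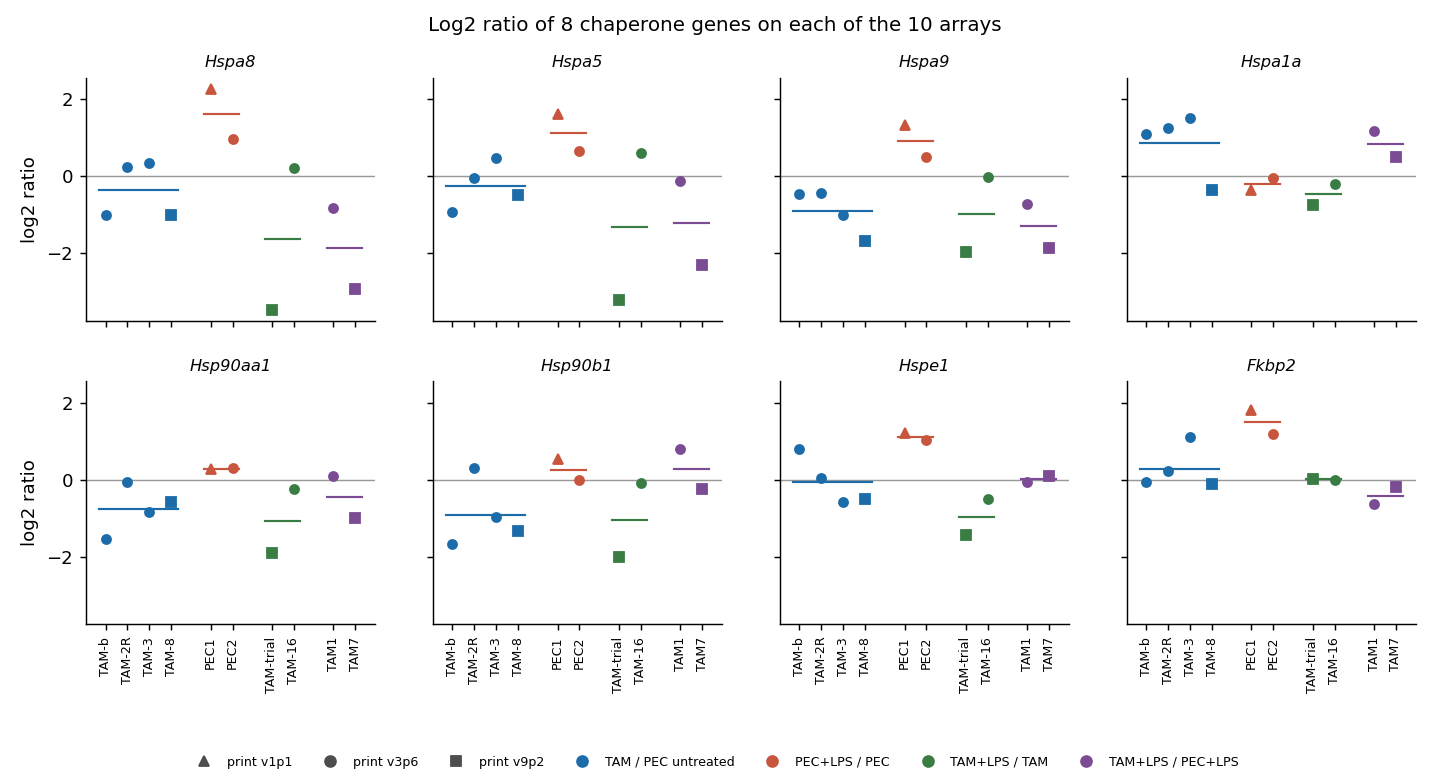
Log2 ratio of 8 chaperone genes (y axis) on each of the 10 arrays (x axis), coloured by comparison, with the marker shape giving the print version and a line at each comparison's mean. Hspa8, Hspa5 and Hspa9 lie above 0 on both PEC arrays and lowest on TAM-trial, at -3.46, -3.21 and -1.95, whereas Hspa1a is above 0 on 3 of the 4 arrays of untreated TAM against PEC and at -0.36 on TAM-8.

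The upstream sequences of 4 genes are shown because their values set the stress-inducible, mitochondrial, ER and cytosolic chaperonin branches side by side. Each is the 250 bases before the RefSeq start of the gene (build GRCm38.p6), 5′ to 3′ on the gene's strand, in lower case with matches in capitals. The heat shock element was searched as GAANNTTC or TTCNNGAA, which can overlap each other, on both strands. Hspa1a (chr17:34972157-34972406, minus strand) has 1 heat shock element match, from 104 bases before the start. Hspe1 (chr1:55087898-55088147, plus strand) has 3 that overlap in 1 run, from 89 bases before it. Hspa5 (chr2:34771840-34772089, plus strand) and Cct3 (chr3:88296885-88297134, plus strand) have none of these letters in this window.
Hspa1a: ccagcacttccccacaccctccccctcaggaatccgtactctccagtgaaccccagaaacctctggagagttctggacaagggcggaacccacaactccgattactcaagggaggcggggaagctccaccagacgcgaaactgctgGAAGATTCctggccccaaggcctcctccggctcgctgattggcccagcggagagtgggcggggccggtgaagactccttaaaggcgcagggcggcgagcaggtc
Hspe1: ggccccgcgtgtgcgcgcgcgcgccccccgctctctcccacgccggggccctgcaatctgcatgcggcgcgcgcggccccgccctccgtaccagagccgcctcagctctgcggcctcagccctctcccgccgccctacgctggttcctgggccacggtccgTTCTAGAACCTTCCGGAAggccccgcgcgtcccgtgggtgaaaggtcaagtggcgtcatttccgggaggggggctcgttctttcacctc
Hspa5: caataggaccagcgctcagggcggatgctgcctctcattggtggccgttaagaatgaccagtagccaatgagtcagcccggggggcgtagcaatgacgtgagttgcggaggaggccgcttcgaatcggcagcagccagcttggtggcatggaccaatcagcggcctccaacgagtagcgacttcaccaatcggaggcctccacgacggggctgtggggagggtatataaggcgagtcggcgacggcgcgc
Cct3: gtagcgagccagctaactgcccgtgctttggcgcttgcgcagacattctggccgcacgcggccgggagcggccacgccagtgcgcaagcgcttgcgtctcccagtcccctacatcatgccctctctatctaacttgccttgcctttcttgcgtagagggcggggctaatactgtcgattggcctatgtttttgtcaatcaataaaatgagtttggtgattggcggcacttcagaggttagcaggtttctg

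Over the 300-base windows from 250 bases before to 50 after the start, 55 of the 66 genes had a RefSeq promoter entry. The 8-base heat shock motif occurred in 15 of these (27.3%) against 17.0% of 27025 genes. Members with the 8-base heat shock motif had a median of 0.06 for LPS in PEC and the other members with an entry had 0.32; in untreated TAM against PEC the medians were 0.005 and 0.008. A match of letters is no evidence of binding.

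Both HSP90 genes had negative means in untreated TAM against PEC and for LPS in TAM. Hsp90aa1, the inducible cytosolic HSP90, was below 0 on all 4 arrays of untreated TAM against PEC, at -1.53, -0.06, -0.83 and -0.58, with a mean of -0.75 ± 0.61 (SD, n = 4; interval -1.59 to 0.09; adjusted p = 0.385). Hsp90b1 encodes GRP94, the HSP90 of the ER, which folds Toll-like receptors. It read -1.68, 0.31, -0.98 and -1.33, below 0 on all arrays but TAM-2R, with a mean of -0.92 ± 0.87 (SD, n = 4; interval -1.88 to 0.03). With LPS in PEC both were near 0, at 0.27 and 0.30 for Hsp90aa1 and 0.53 and 0.00 for Hsp90b1. In TAM they were at -1.91 and -2.01 on TAM-trial but -0.25 and -0.08 on TAM-16, so their means of -1.08 and -1.04 rest on TAM-trial. In a loop fit of all arrays with a dye term these means were -0.11 and 0.37, so Hsp90b1 changed sign. The same fit gave -0.27 for Hsp90aa1 in untreated TAM against PEC. For LPS in PEC the 95% intervals of Hsp90aa1 and Hsp90b1 were -0.90 to 1.47 and -1.09 to 1.61, wide enough to hold a doubling.

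The HSP90 co-chaperones did not share these values. Ahsa1, the activator of HSP90's ATPase, was above 0 on all 4 arrays of untreated TAM against PEC, at 1.43, 0.60, 0.73 and 1.66, with a mean of 1.10 ± 0.52 (SD, n = 4; interval 0.23 to 1.97; adjusted p = 0.262). With the median of each place on the array subtracted, that mean was 0.47. Its LPS values were 0.05 and 0.99 in PEC and 1.04 and -0.75 in TAM. Cdc37, which brings kinases to HSP90, had a mean of 1.09 in untreated TAM against PEC that came from 1 feature at 7.0 on TAM-3; its other feature averaged 0.74. Its 2 features averaged 0.48 and -0.36 for LPS in PEC.

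The chaperonins were the role group with the highest median for LPS in PEC, 1.01. All 10 of their means were above 0 there, beside 48.1% of everything tested. For 8 of them both arrays were above 0, beside 31.4%. The TRiC ring, which folds actin and tubulin, was covered by Tcp1 and Cct2 to Cct8. Cct3 read 1.38 on PEC1 and 1.17 on PEC2, a mean of 1.27 ± 0.15 (SD, n = 2; interval 0.17 to 2.38; adjusted p = 0.516). Cct5 read 1.55 and 0.85, a mean of 1.2 ± 0.49 (SD, n = 2; interval 0.24 to 2.16; adjusted p = 0.464). Cct6a was at 1.66 and 1.14 and Cct7 at 0.85 and 0.94. The remaining subunits were lower or less even between the arrays: Cct8 at 2.16 and 0.38, Tcp1 at 1.29 and 0.25, Cct2 at 1.33 and -0.54, and Cct4 at 0.29 and 0.16. For Cct4 the 2 features disagreed, at means of -0.51 and 0.97.

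Hspe1 encodes HSP10, the lid of the mitochondrial chaperonin. It was at 1.21 and 1.03 for LPS in PEC, close to each other and both above 0, with a mean of 1.12 ± 0.13 (SD, n = 2; interval 0.10 to 2.14; adjusted p = 0.540). For LPS in TAM it was at -1.43 and -0.51, below 0 on both arrays. The mean was -0.97 ± 0.65 (SD, n = 2, interval -1.99 to 0.05, limma adjusted p = 0.827). With the median of each place on the array subtracted, the mean was -0.21 in TAM, from -0.28 and -0.13, and 1.19 in PEC. The difference between its responses was -2.09 (SE 0.65, interval -3.53 to -0.65, limma adjusted p = 0.719). That difference was -1.40 with place medians subtracted and -0.89 in a loop fit of all arrays with a dye term. In the direct comparison of the treated cell types Hspe1 read -0.06 and 0.10, and in the untreated ones 0.80, 0.05, -0.59 and -0.51. The feature named Hspd1-ps3, a pseudogene of the HSP60 gene that a cDNA spot could not tell from Hspd1 itself, was at 0.32 and -0.19 for LPS in PEC. It was below 0 on both TAM arrays, at -1.29 and -0.35, and on all 4 arrays of untreated TAM against PEC, from -1.06 to -0.24.

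In TAM the chaperonins did not show the PEC pattern on both arrays. The median of the 10 genes was -1.04 on TAM-trial (print v9p2) and 0.32 on TAM-16 (print v3p6), against 1.31 on PEC1 and 0.62 on PEC2. Cct6a was at -2.46 on TAM-trial and 0.39 on TAM-16, and Tcp1 at -2.43 and 0.63, whereas Cct3, at -0.27 and 0.54, and Cct5, at -0.38 and 0.67, varied less. Cct2, Cct4, Hspe1 and Hspd1-ps3 were below 0 on both. All 10 differences of response, TAM minus PEC, were below 0, beside 55.3% of everything tested. They ran from -2.43 (Cct6a, SE 1.0, limma adjusted p = 0.719, and -1.0 without TAM-trial) to -0.84, and none passed the threshold. In treated TAM against treated PEC, Cct5 read -0.64 and -1.19 (mean -0.91, interval -1.87 to 0.05). Cct6a read -0.57 and -1.75 (mean -1.16, and -0.59 with TAM1 unturned), and Cct2 -0.54 and -1.07. Of the 10, 6 were below 0 on both arrays, beside 28.2% of everything tested, and the median was -0.50. The untreated cell types gave a median of -0.20, with the means between -0.78 (Cct8) and 0.47 (Cct3).

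**Figure D3:**
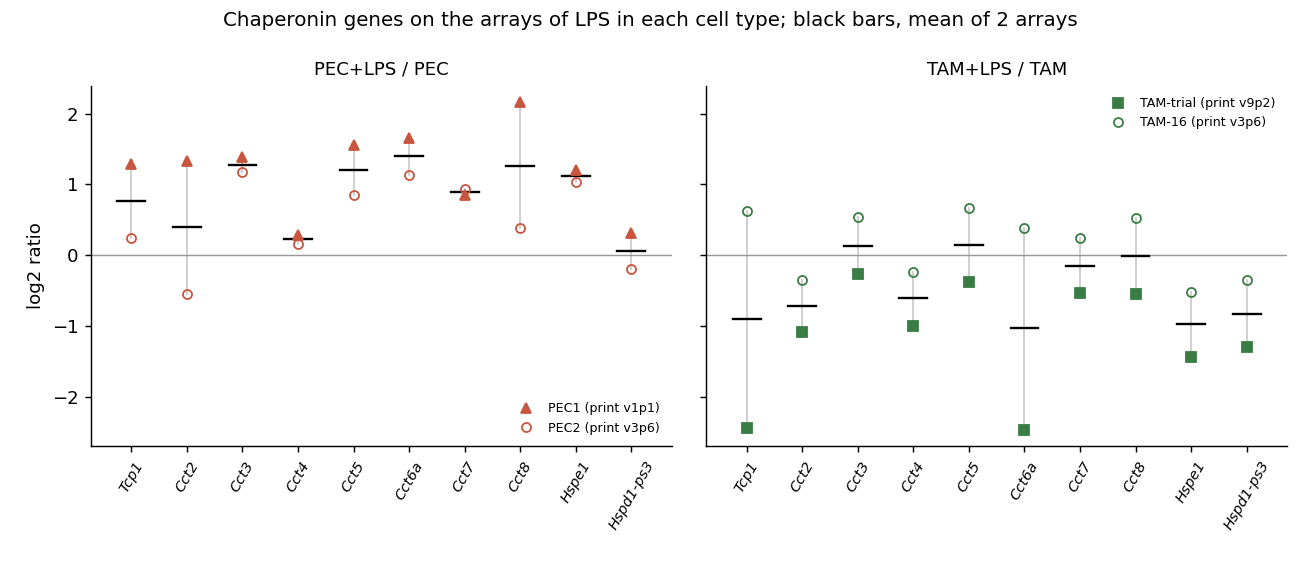
Log2 ratio of LPS-treated over untreated cells (y axis) for the 10 chaperonin genes (x axis) on the 2 PEC arrays (left) and the 2 TAM arrays (right), with a bar at the mean of each pair. Of the PEC points only Cct2 and Hspd1-ps3 on PEC2 lie below 0, while in TAM every TAM-trial point lies below the TAM-16 point.

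On the arrays with LPS, sets of other housekeeping genes had medians on the same side of 0 as the chaperonins. The 26 cytosolic ribosomal protein genes had medians of 2.22 on PEC1, 1.3 on PEC2, -1.76 on TAM-trial and 0.15 on TAM-16. The 33 proteasome subunit genes had 1.33, 0.24, -1.0 and 0.03. Between the treated cell types the medians on TAM1 and TAM7 were -1.26 and -0.93 for the ribosomal genes, -0.84 and -1.16 for the proteasome and -0.32 and -0.51 for the chaperonins. The chaperonin medians therefore lay below the ribosomal ones on both PEC arrays. In untreated TAM against PEC the sides differed: on its 4 arrays, in the order first given, the chaperonin medians were -0.33, -0.15, -0.45 and 0.08, the ribosomal ones 0.06, 0.27, 0.65 and -0.60, and the proteasome ones -0.19, 0.33, 0.22 and -0.58. Whether the chaperonins differ from these lists was not tested.

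**Figure D4:**
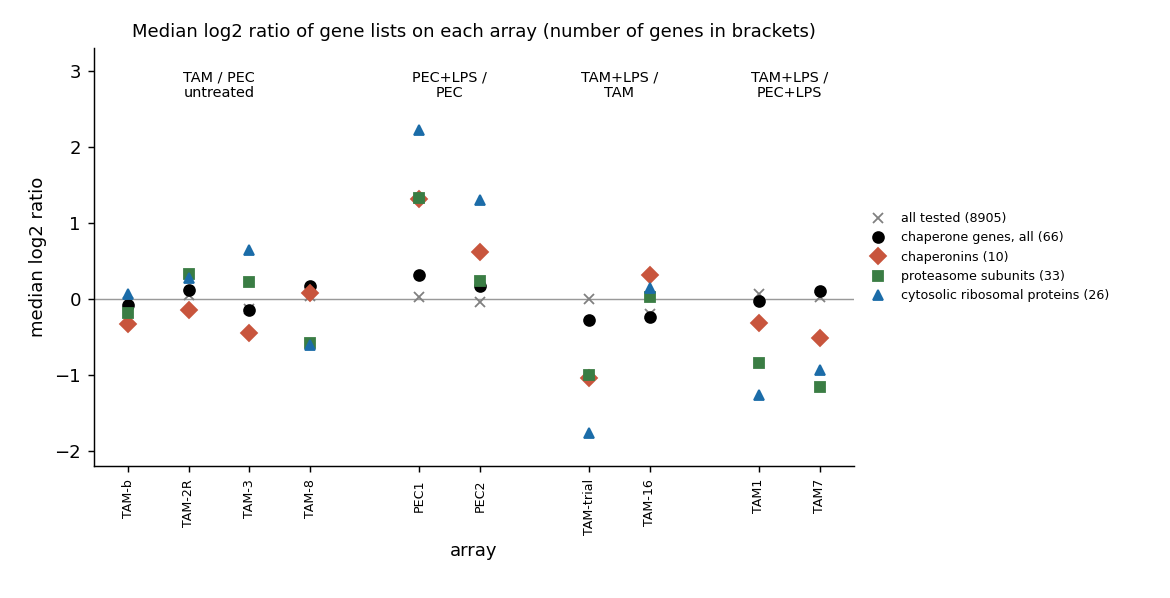
Median log2 ratio (y axis) of all genes tested, of the 66 chaperone genes, of the 10 chaperonins, of 33 proteasome subunits and of 26 cytosolic ribosomal proteins on each array (x axis). On PEC1 the chaperonin median is 1.31 and the ribosomal one 2.22; on TAM-trial they are -1.04 and -1.76.

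The DnaJ genes, which pass clients to HSP70 and trigger its ATPase, had medians near 0 over members that went both ways. The medians were 0.07 in untreated TAM against PEC, 0.09 for LPS in PEC, 0.14 for LPS in TAM and 0.23 between the treated cell types. The means ran from -1.04 (Dnajc22) to 1.17 (Dnajc14) for LPS in PEC and from -1.2 (Dnajc19) to 1.5 (Dnajc14) for LPS in TAM. Dnajb1 encodes HSP40, the main heat-inducible partner of HSP70. It read -0.15 and 0.15 for LPS in PEC, with a 95% interval of -1.08 to 1.08, and 0.17 and 1.09 in TAM. It was above 0 on all 4 arrays of untreated TAM against PEC, at 0.09, 0.32, 1.67 and 0.24, where TAM-3 stood apart. Dnaja1, a cytosolic partner of HSC70, was at 0.63 and -0.52 in PEC and 0.44 and -0.43 in TAM.

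The ER-resident DnaJ genes did not share a direction. Dnajb9, a BiP partner induced by the unfolded protein response, read 1.31 and 0.27 for LPS in PEC, both above 0, with a mean of 0.79 (interval -0.11 to 1.70; adjusted p = 0.687), and between -0.26 and 0.04 in the untreated cell types. Dnajc3, a further BiP partner, was at 0.78 and -0.05 in PEC, and Dnajc1 at -0.20 and -1.66, a mean of -0.93. Among mitochondrial members, Dnajc19, which belongs to the import motor that Hspa9 drives, was below 0 on both TAM arrays, at -1.88 and -0.53, with a mean of -1.2 (interval -2.45 to 0.05). Dnajc30, also mitochondrial, was at -1.49 and -0.37 there. Dnajc12 was above 0 on all 4 arrays of untreated TAM against PEC, at 1.22, 1.03, 0.69 and 0.06, with a mean of 0.75 ± 0.51 (SD, n = 4; interval 0.01 to 1.49; adjusted p = 0.346). After place medians were subtracted that mean was 0.09, and with TAM-2R left unturned 0.23. Dnajc14 had a mean of 1.90 in that comparison from values of 2.93, -0.39, 0.50 and 4.56, a spread wider than the mean.

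FK506-binding proteins gave the next highest median for LPS in PEC among groups of over 3 genes, 0.70. Fkbp2, an ER prolyl isomerase, read 1.80 and 1.19 in PEC, the highest mean of the family at 1.49 ± 0.44 (SD, n = 2; interval 0.53 to 2.45; adjusted p = 0.423), and 0.03 and 0.00 in TAM. Its difference of responses was -1.48 (SE 0.61; adjusted p = 0.719). Fkbp8, which anchors at mitochondria and binds BCL-2, was at 1.17 and 0.85 in PEC, a mean of 1.01 ± 0.22 (SD, n = 2; interval 0.03 to 1.99; adjusted p = 0.594). Between the treated cell types it read -1.57 and -0.55, a mean of -1.06, and leaving TAM1 unturned made that mean 0.51. Fkbp1a, the FKBP12 target of rapamycin and FK506, was at 1.43 and 0.65 in PEC and at -0.41 and -0.43 in TAM.

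Fkbp5 and Fkbp4, the HSP90 partners that tune steroid receptors, differed between arrays. Fkbp5 read 1.01 and 0.01 for LPS in PEC and -1.17 and -0.68 in TAM, the latter with a mean of -0.92 (interval -2.15 to 0.31). Fkbp4 was above 0 on all 4 arrays of untreated TAM against PEC, from 0.11 to 0.63, and at 1.22 and 0.17 for LPS in PEC. Its mean of -3.37 between the treated cell types came from -7.17 on TAM1 against 0.44 on TAM7. Fkbp9, an ER member, was at -1.03, -1.52, -1.67 and 0.38 in untreated TAM against PEC, low on the 3 v3p6 arrays and above 0 on the v9p2 array, with a mean of -0.96 ± 0.93 (SD, n = 4; interval -1.91 to -0.02; adjusted p = 0.341). With TAM-2R left unturned that mean was -0.20.

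Cyclophilins, small heat shock proteins and BAG genes were few. Ppic, cyclophilin C, had a mean of 2.09 in untreated TAM against PEC with values of -0.32, 1.77, 6.40 and 0.53, so TAM-3 set it; without TAM-3 the mean was 0.66. Ppih was below 0 on both arrays for LPS in PEC, at -0.59 and -0.47, and in TAM, at -0.35 and -0.34. The small heat shock protein Hspb7 was at -1.04, 0.03, -3.09 and 0.04 in untreated TAM against PEC. Bag1, an exchange factor of HSP70, read 0.78 and 0.46 for LPS in PEC and -1.31 and -0.73 between the treated cell types, where its mean was -1.02 (interval -2.08 to 0.04). Bag6, which guards tail-anchored proteins, had the same order, at 0.86 and 0.55 and at -0.89 and -0.66. Bag3, a stress-induced partner of HSP70 in autophagy, ran from -3.09 on TAM-3 to 2.42 on TAM-b in untreated TAM against PEC, and no direction can be read from it.

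Both matches outside the chaperone roles were among the larger means in untreated TAM against PEC. Hspg2 was at -0.32, 1.89, 1.54 and 2.42, above 0 on all arrays but TAM-b, with a mean of 1.38 ± 1.19 (SD, n = 4; interval 0.35 to 2.42; adjusted p = 0.245), which was 0.44 with TAM-2R left unturned. Of 16 fibroblast and stroma markers measured, 13 had means above 0 there, beside 48.7% of everything tested, with a median of 0.49. Only 3 of the 16 were above 0 on all 4 arrays, beside 8.77%. Igfbp4 passed the threshold at 2.20 (limma adjusted p = 0.0412). The part of these markers in the Hspg2 value was not tested. Of 10 neutrophil markers 7 had means above 0, with a median of 0.88, and 3 were above 0 on all 4 arrays. Hspa12a was below 0 on all 4 arrays, at -1.98, -0.06, -3.01 and -0.24, with a mean of -1.32 ± 1.42 (SD, n = 4; interval -2.40 to -0.25; adjusted p = 0.274). Without Hspg2 the median of the group in this comparison was -0.02.

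Other genes of protein folding and stress gave no call either. Of 41 listed genes of ER folding and the unfolded protein response 21 were measured, of 33 prefoldin and cytosolic co-chaperone genes 20, of 27 mitochondrial chaperones and proteases 13, and of 21 stress-induced genes outside the chaperones 12. In each of these lists 0 genes passed the adjusted threshold in either direction in any of the 4 comparisons (limma). At an unadjusted p under 0.05 the ER list had 2 genes higher and 1 lower for LPS in PEC and 4 lower for LPS in TAM, beside 5.73%, 2.41% and 4.68% of everything tested. Its median was 0.07 in PEC and -0.58 in TAM, where 11 of 21 genes were below 0 on both arrays, beside 33.7% of all. The stress-induced list had medians of 1.66 for LPS in PEC and 0.26 in TAM. As drawn up, it shares Ier3 with the list of inflammatory genes, whose median for LPS in PEC was 2.03. Whether its values reflect stress was not tested. For LPS in PEC 8 of 12 stress-induced genes were above 0 on both arrays, beside 31.4% of all. At an unadjusted p under 0.05 (limma) 5 of them were higher, beside 5.73% of all. The mitochondrial list was at 0.39 in PEC and -0.27 in TAM, with 2 genes higher in PEC and 2 lower in TAM by the same measure; the prefoldin list was at 0.22 and -0.28, with the same counts.

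Arrays of one comparison differed widely on single chaperone genes. For LPS in PEC 43 of 66 genes had the same sign on both arrays. Of everything tested 31.4% were above 0 on both and 32.5% below 0 on both, so such agreement was not particular to the chaperones. The values on PEC1 and PEC2 correlated at 0.30 across the 66 genes, beside 0.285 over everything tested. For LPS in TAM 34 of 66 (51.5%) had opposite signs on TAM-trial and TAM-16, against 43.9% of everything tested. The correlation was -0.13, beside 0.096 over everything tested. On TAM1 and TAM7 31 (47%) had opposite signs, against 38.9%, and the correlation was 0.06, beside 0.308. Genes are not independent replicates, and each pair shares its probes and differs in print version. The median gap between the arrays of a pair was 0.58, 0.80 and 0.74 for these comparisons.

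The comparison of treated TAM with treated PEC can also be reached through the untreated cells, as the TAM response minus the PEC response plus the untreated difference, on other arrays. For 44 of 66 genes this route had the sign of the direct arrays, and the median gap between the routes was 0.84. Neither was computed over everything tested, so neither is read as a trait of the chaperone genes. Hspa8 was at -3.60 by the route and -1.87 directly, Hspa9 at -2.79 and -1.28, and Cct6a at -2.88 and -1.16. Without TAM-trial the route gave -1.77, -1.82 and -1.45 for these genes, an alternative added after seeing the data, so the larger size of the Hspa8 route rests on that array. Hspe1 was at -2.15 by the route (-1.69 without TAM-trial) and 0.02 directly, and Cct8 at -2.05 (-1.52 without it) and 0.13. Hspa1a was above 0 either way, at 0.60 and 0.84. Hspa8, Hspa9 and Cct6a were among the 5 lowest members with 1 sign on both direct arrays, so their low direct values follow from that choice. They did not pass the threshold there. Their route values were also below 0, but no test was run on the route. On the direct arrays the means of 26 of 26 ribosomal and 28 of 33 proteasome genes were below 0 as well, beside 44.2% of everything tested.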

How the data were processed

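Each array compared total RNA of 2 conditions, 1 per channel. The values the authors deposited are log ratios, taken as log2; how they were scanned, corrected, filtered and normalized, and the log base, is not given in the sources used here. Precision is limited by the number of arrays. Conditions and print versions are per the labels. Features of 1 gene were averaged without weights, giving 8905 genes and unnamed features with 0 missing values. TAM-2R and TAM1 were multiplied by -1. All 10 arrays entered 1 fit with a mean per comparison (lmFit and eBayes of limma, version 3.58.1, run under R 4.3.3, 6 residual degrees of freedom), with Benjamini-Hochberg adjustment and a threshold of 0.05. The difference of the LPS responses was a contrast of that fit. The steps were tested on simulated data, with changes added to untreated TAM against PEC alone and larger than the chaperone means seen there. That run does not show whether changes of the size seen here, or in the LPS comparisons, could be called. Intervals are 95% intervals of the fit, SD the spread between arrays and SE the fit's standard error.

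The members, gene lists and tests were chosen with earlier results of these data known. Genes could be named if they passed the threshold, were among the 5 highest or 5 lowest means of a comparison with 1 sign on every array of it, or belonged to a panel of 39 chaperone genes, of which 29 were measured. Bag6, Dnajc30, Fkbp9, Hspb7, Hspb9 and Ppih were named after their values were seen. All 66 symbols matched RefSeq by Entrez identifier, and promoters are RefSeq's, build GRCm38.p6. The alternatives were centring and scaling the arrays, subtracting place medians, leaving the exchanged arrays unturned, dye terms, print as a term or block, 1 print alone, each comparison's own arrays alone, features taken singly, and leaving out each array.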

Additional observations from a re-analysis of the deposited data

Results flagged for a closer look

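In untreated TAM against PEC, 47 of the 66 members were tested for an array far from the other 3. Dixon's test set its gap against the whole range. Of the members tested 3 met this, and chance gives about 1 in 20 such groups of arrays. The rest were not tested, so 3 is no count over all 66. Dnajb1 was at 1.67 on TAM-3, with the other arrays between 0.09 and 0.32. Cct4 was at -1.14 on TAM-3, with the others between 0.07 and 0.28. Cct7 was at -0.42 on TAM-2R, with the others between 0.40 and 0.56.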

How the results depend on the processing

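The number of members passing the threshold was 0 for untreated TAM against PEC and for LPS in TAM under every alternative run. For LPS in PEC it was 1 with print as a fixed term and 0 to 1 with each array left out; for the difference of responses it was likewise 1 and 0 to 1. The gene was Hspa2 each time, called without PEC1, where its value rests on PEC2 alone (-7.04). Between the treated cell types leaving out each array gave 0 to 1, the call being Fkbp4 without TAM7, on TAM1 alone (-7.17). A lone array is assumed there to vary like the other groups.

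At an unadjusted p under 0.05 (limma) the alternatives that keep all arrays or 1 print gave 2 to 8 members for untreated TAM against PEC and 2 to 12 for LPS in PEC. They gave 0 to 1 for LPS in TAM, 1 to 10 between the treated cell types and 1 to 9 for the difference of responses. The matching shares of everything tested were not computed, so whether these counts exceed a background is not known.

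The median of the 66 genes in untreated TAM against PEC was 0.15 in a loop fit with a dye term, beside 0.001 over everything tested. With each array left out it was -0.09 to 0.09. For LPS in PEC it was 0.39 with a dye term, beside -0.04 over everything tested, and 0.17 to 0.31 with each array left out. For LPS in TAM it was -0.16 with arrays centred, -0.19 also scaled, -0.34 with a dye term, -0.14 in the loop fit and -0.35 with print as a fixed term. Everything tested had -0.02, -0.03, -0.22, -0.14 and -0.23 under those settings in turn, so in the loop fit the members did not depart from it. Without TAM-16 the members were at -0.28 beside -0.004 for everything tested, and without TAM-trial at -0.24 beside -0.20. The gap to everything tested thus came mainly from TAM-trial. Between the treated cell types it was 0.001 with TAM1 left unturned, -0.037 in the loop fit, -0.049 with print as a fixed term and -0.02 within print v3p6. Everything tested had 0.033, 0.065, 0.007 and 0.058 under those settings in turn. With each array left out the median of the 66 genes there was -0.02 to 0.13. Of 1080 alternatives on 54 gene values, 15 had the other sign. Many of the 1080 could not move a value. Each comparison has its own mean, so leaving out an array of another comparison, or using its own arrays alone, does not change it. The count of 15 is therefore no measure of how stable the values are. The causes of the shifts were not tested. Each value is a ratio of 2 conditions on the same array, so every direct comparison is already paired by array. Arrays of different comparisons were not paired with each other.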

Other observations

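Of 770 values of the chaperone features, 7 were over 4 in size (0.909%, against 1.38% of all feature values), and each stood on 1 array. They were Cdc37 on TAM-3 at 7.0, Ppic on TAM-3 at 6.40, Dnajc14 on TAM-8 at 4.56, Fkbp4 on TAM1 at -7.17, Hspa2 on PEC2 at -7.04, Hspa4l on PEC2 at -6.10 and Hspb9 on TAM-2R at -4.74.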
